A study of Bos taurus with 25 samples.

Results

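The mammary gland of dairy cows injected with folic acid (vitamin B9) was compared with that of cows injected with saline. Arrays were chosen by their labels as those of the mammary gland from cows of the Vitamin B9 group or of the Control group, which gave 6 of the 25 arrays of the series, 3 in each group, each of a different cow. The cows were multiparous lactating Holstein cows that received an intramuscular injection of 5 mL once a week, from before calving until biopsy at 64 ± 3 days after calving. Each injection held saline alone in the Control group (cows 42, 43 and 51) and 320 mg of folic acid in the Vitamin B9 group (cows 39, 41 and 57). The B12 group (cows 36, 37, 40 and 52, 10 mg of vitamin B12) and the B9 + B12 group (cows 31, 32 and 38, both vitamins) gave another 7 mammary arrays, which entered the estimate of the spread and the comparisons with vitamin B12. All cows were fed diets formulated to meet recommendations, and rumen bacteria also make B vitamins, so that the contrast is one of added folic acid and not of folate against none. Each array measured the RNA of a whole biopsy of a single cow, so that fewer cells of a type and less RNA per cell cannot be told apart.

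Folates carry one-carbon units. They are taken up by carriers and receptors, are loaded with one-carbon units mostly from serine and glycine, and give these units up for the synthesis of purines and thymidylate or, through methyltetrahydrofolate, for the remethylation of homocysteine to methionine, a step that also needs vitamin B12. The lactating mammary gland is made of secretory epithelial cells that produce casein, whey proteins, lactose and fat droplets, contractile myoepithelial cells, a stroma with fibroblasts, fat and vessels, and immune cells.

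Values are log2 fluorescence intensities after correction for background and quantile normalization of the 13 mammary arrays. A difference is the mean of the Vitamin B9 group minus the mean of the Control group, so that 1 is a doubling of the corrected value. The correction adds an offset of 50, which makes differences of dim probes smaller than those of the signal itself. Between 64.4% and 76.5% of the probes of an array were well above background in the gland, and the median spot was 2.93 to 5.06 times its background. The genes of milk proteins marked the tissue, since the probes of PAEP, CSN3, CSN1S2, LALBA and GLYCAM1 lay between 18.3 and 18.8 on all 13 mammary arrays when both tissues were normalized together, against 6.03 to 11.7 on the 12 liver arrays. The array of cow 57 of the Vitamin B9 group stood apart. It had the lowest median correlation with the other mammary arrays (0.986, against 0.987 to 0.991) and the highest value of the 13 arrays for 7 of the 11 genes of the liver list. ALB, the gene of serum albumin, was at 10.6 on this array, and at 6.18 and 6.06 on the other arrays of the Vitamin B9 group. In the Control group ALB was at 6.11, 7.07 and 6.33, so that the array of cow 43 was also the highest of its group. The medians of gene lists are therefore also given without cow 57 where leaving it out moved them by over 1.5 times.

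**Figure D1:**
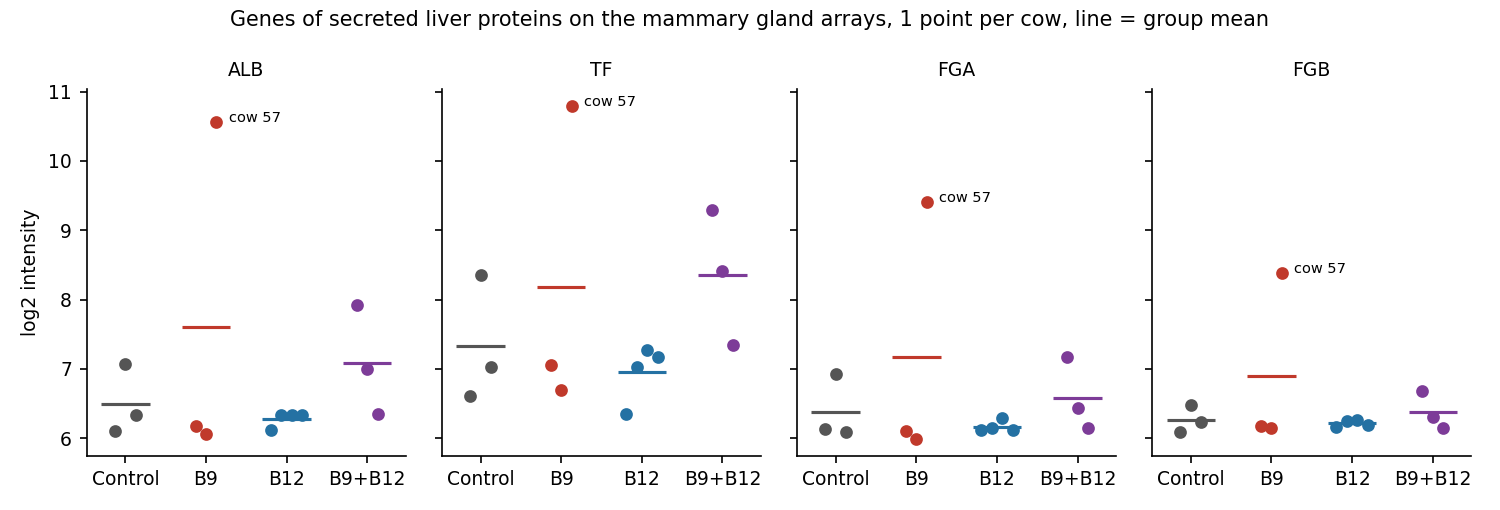
Log2 intensity (vertical axis) of ALB (albumin), TF (transferrin), FGA and FGB (fibrinogen chains) on each of the 13 mammary gland arrays, by group, with a point per cow and a line at the group mean. The array of cow 57 lies above all other mammary arrays for each of the 4 genes, from 8.38 for FGB to 10.8 for TF.

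No gene passed the limma test across all probes. Limma, with Benjamini-Hochberg adjustment over 43653 probes, called 0 genes (0% of probes) under the rule that asks for an adjusted p of 0.05 or less with a 2-fold or larger difference, and the smallest adjusted p was 1. At an unadjusted p of at most 0.05, 1112 probes (2.55%) differed, 633 of them higher (1.45%) and 479 lower (1.1%) with B9. Both this p and a 2-fold difference were reached by 30 probes (0.0687%), 13 higher (0.0298%) and 17 lower (0.0389%). The 3 arrays of each group lay apart, with no overlap, for 3049 probes (6.98%), with B9 higher in 3.83% and lower in 3.15% of probes. On the brightest probe of each of the 27841 names, 2.42% had an unadjusted p of at most 0.05 and the groups lay apart for 6.68%, with B9 higher in 3.43% and lower in 3.25%. Cyber-T, the test that the study names, called 5 probes of 4 names (0.0115% of probes) on the same values, namely POSTN, CIDEA and the 2 array names NM_001076983 and CF768578, and only POSTN was higher. On the processed table that the authors deposited, it called 10 names, COL8A1, VAV1 and FUT6 among them (Cyber-T adjusted p of 0.0314, 0.0261 and 0.0438). NM_001076983 and CF768578 have no current symbol here. The brightest probe of NM_001076983 differed by -1.64 and that of CF768578 by -1.95, each with a Cyber-T adjusted p of 0.0132 after Benjamini-Hochberg adjustment. Without cow 57, the number of probes at an unadjusted p of at most 0.05 and at least 2-fold went from 30 to 78, and 0 genes were called. The values below are thus descriptions of 3 cows against 3, in which an exact permutation test (two-sided) cannot give less than 0.1, and a limma p is unadjusted where it is called so. The adjusted p of limma was 1 for each of the genes named in the Vitamin B9 comparison.

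POSTN, which encodes the matricellular protein periostin of the stroma, was higher with B9 on all 3 of its probes. Its brightest probe (A_73_P418476) was at 7.09, 7.29 and 7.0 in Control cows 42, 43 and 51, and at 8.19, 8.54 and 8.47 in cows 39, 41 and 57 of the Vitamin B9 group. The groups did not overlap, and the gap between them was wider than the range of either. The difference was 1.27 (standard error 0.272), or 2.41-fold, with an adjusted p of 1 from limma (unadjusted 0.000723) and of 0.00896 from Cyber-T. Its other probes, A_73_118890 and A_73_P101676, were dimmer and differed by 0.73 and 0.61, again with the groups apart. Without cow 57, the difference on the brightest probe was 1.24. POSTN did not separate the groups that received vitamin B12, which were at 7.45 to 8.67 with B12 alone and at 7.29 to 7.96 with B9 + B12.

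For reference, the study assayed POSTN and CIDEA by quantitative PCR with primers that include the following, shown 5′ to 3′ because these are the 2 genes with symbols that Cyber-T called. They identify the transcripts meant, and no PCR value is used here.
POSTN forward: cctgattctgccaaacaagttattg
CIDEA forward: cagggttcaaggccatgct
CIDEA reverse: gtaggtgcccatgtggataagac

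COL8A1 and LTBP2, also genes of the extracellular matrix, were among the 10 higher genes of smallest p. COL8A1, which encodes a short-chain collagen of vessel walls and basement membranes, was at 7.45, 6.95 and 7.52 in Control cows and at 8.18, 8.69 and 8.37 in the Vitamin B9 group. The difference was 1.11 (standard error 0.278, unadjusted p of 0.00226 by limma), and 0.45 to 1.53 over the alternatives. Of the 5 probes of COL8A1, 4 had the groups apart, with differences between 0.21 and 1.11. LTBP2, a latent TGF-beta binding protein of elastic fibres, was at 8.42, 8.11 and 8.16 in Control cows and at 9.26, 8.61 and 9.12 with B9 (difference 0.77, standard error 0.168). Again the groups were apart, with cow 41 the nearest to the Control cows. TGFB2, a TGF-beta ligand, differed by 0.45 and TIMP2, an inhibitor of matrix metalloproteinases, by 0.41, with tight groups for TIMP2 (11.57 to 11.77 in Control cows, 12.04 to 12.06 with B9). LOXL4, a lysyl oxidase that crosslinks collagen and elastin, differed by 0.94 but overlapped, with cow 41 at 7.91 and Control cow 43 at 8.01. Of the 18 integrin and TGF-beta genes measured, 11 were above 0 (median 0.0496), and of the 16 matrix protease and inhibitor genes 10 were (median 0.0583, and 0.0308 without cow 57).

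As a list, the matrix genes leaned to higher values. Limma called none of them, and Cyber-T called POSTN. Of 34 genes of this list, 24 were measured, of which 20 differed by more than 0 and 4 by less, with a median difference of 0.143 against -0.00177 over the 27841 names of the array. POSTN and LOXL4 had an unadjusted p of at most 0.05 and none was lower at that p, where 1.24% of all names were higher and 1.19% lower. Without cow 57, LOXL4 did not reach that p (unadjusted limma p of 0.0819). The fibrillar collagen chains COL1A1, COL1A2 and COL3A1 differed by 0.24, 0.22 and 0.11, each with overlapping groups. The median of the list rested on cow 41: without this cow it was 0.044, with 14 members above 0, and without cow 57 it was 0.178, with 18 above 0. Of the 11 fibroblast markers, 7 were above 0 (median 0.0314, and 0.127 without cow 57). Of the 10 myoepithelial markers, 8 were above 0 (median 0.148, and 0.0358 to 0.368 over the alternatives). OXTR, the oxytocin receptor through which myoepithelial cells contract at milk ejection, stood out among them, at 9.54, 9.72 and 9.81 in Control cows and 9.89, 10.65 and 10.44 with B9 (difference 0.64, unadjusted limma p of 0.00646).

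**Figure D2:**
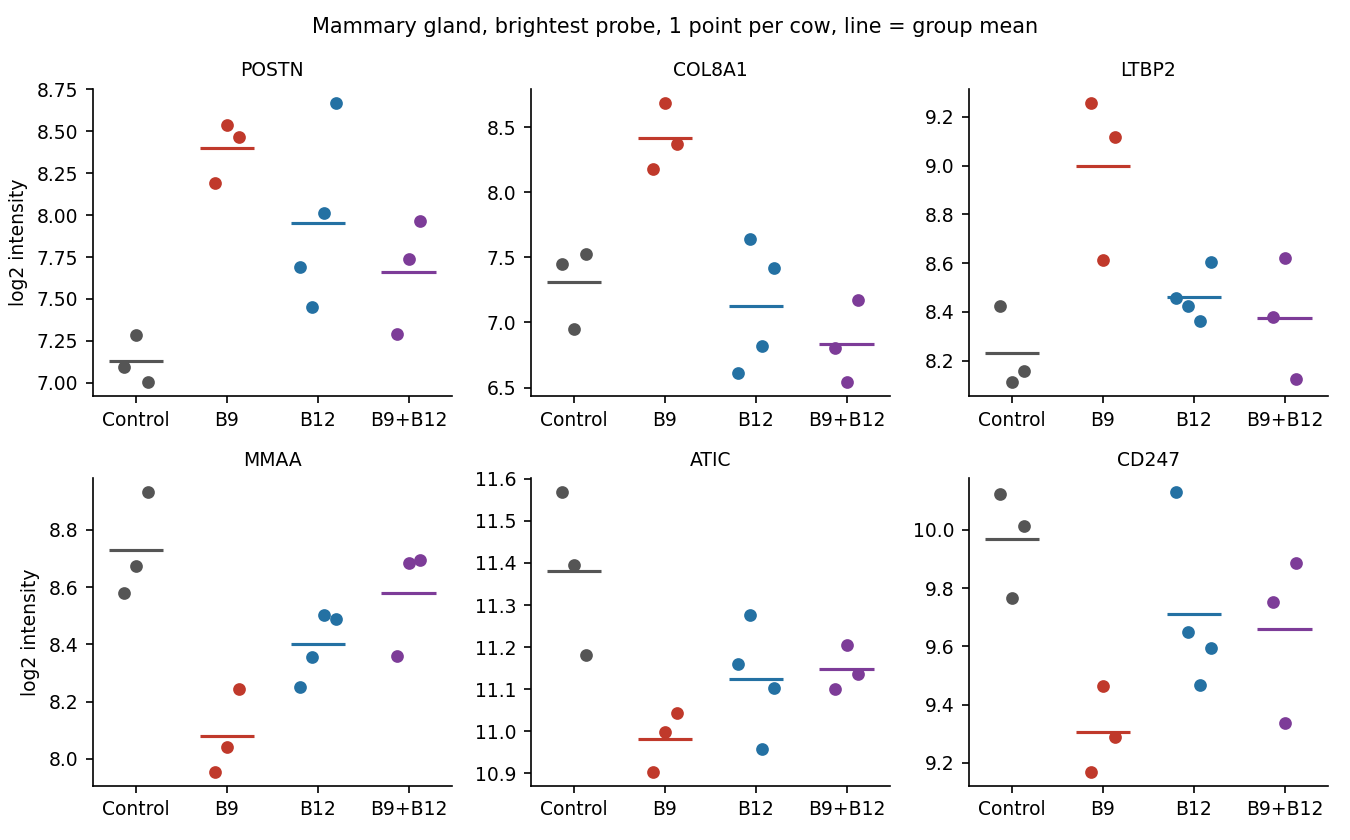
Log2 intensity (vertical axis, a separate scale in each panel) of the brightest probe of POSTN, COL8A1, LTBP2, MMAA, ATIC and CD247 on the 13 mammary gland arrays, with a point per cow and a line at the group mean. Vitamin B9 and Control cows lie apart in each of the 6 panels, and for POSTN the B12 cows, at 7.45 to 8.67, span the gap between them.

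CIDEA, which encodes a protein of the lipid droplet surface that the lactating gland expresses strongly, had 4 probes that went opposite ways. On the brightest, A_73_100290, Control cows 42, 43 and 51 were at 15.48, 15.20 and 16.29, and cows 39, 41 and 57 of the Vitamin B9 group at 13.49, 13.70 and 13.98. On A_73_P436496 the same Control cows were at 13.48, 13.40 and 10.95, and the same cows with B9 at 14.35, 14.21 and 14.37. The groups were apart on all 4 probes, 2 lower with B9 (differences of -1.93 and -1.75) and 2 higher (1.70 and 1.66). The Cyber-T adjusted p was 0.00896 and 0.011 for the lower pair, and 0.456 and 0.462 for the higher pair. A level of the transcript as a whole cannot be read from these probes, and the mean over all 4 differed by only -0.081.

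The mean of the lower pair minus the mean of the higher pair was cut into 3 ranges over the 13 mammary arrays. The cuts were set at the widest gaps between its values, so the number of ranges is a choice. In the lowest, from -2.45 to -2.03, were the 3 cows of the Vitamin B9 group and cow 52 of the B12 group. The middle range, from -0.064 to 0.349, held 7 cows, namely Control cows 42 and 43, B12 cows 36, 37 and 40, and B9 + B12 cows 31 and 38. The highest values were those of Control cow 51 (3.61) and B9 + B12 cow 32 (2.85). Each of the 3 ranges held cows with and without added folic acid, as the B9 + B12 cows lay in the middle and highest ranges and the lowest held a cow that received none.

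The liver arrays of the same cows, which are separate biopsies and arrays, ranked in the order of the 3 ranges, though not in the same order within them. With both tissues normalized together, the 4 cows of the lowest range in the gland had the 4 lowest liver values (-0.517 to 0.550), the 6 cows of the middle range that have a liver array had the next 6 (0.843 to 1.32), and cows 51 and 32 had the 2 highest (2.77 and 2.89). The liver values alone showed no such break between the cows of the lowest and middle ranges. The step from cow 57 (0.550) to cow 38 (0.843) was narrower than that from cow 41 (-0.517) to cow 52 (-0.080). Where cows of the same treatment lay in different ranges in the gland, their liver values stood in the order of those ranges. Under joint normalization B12 cow 52 was at -2.19 in the gland and -0.080 in the liver, against -0.12 to -0.096 and 0.908 to 1.17 in the other B12 cows. Control cow 51 was at 3.60 and 2.77, and Control cows 42 and 43 were at 0.19 and -0.15 in the gland and both at 1.31 to 1.32 in the liver. The part of such differences between cows in the difference between the groups was not tested.

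**Figure D3:**
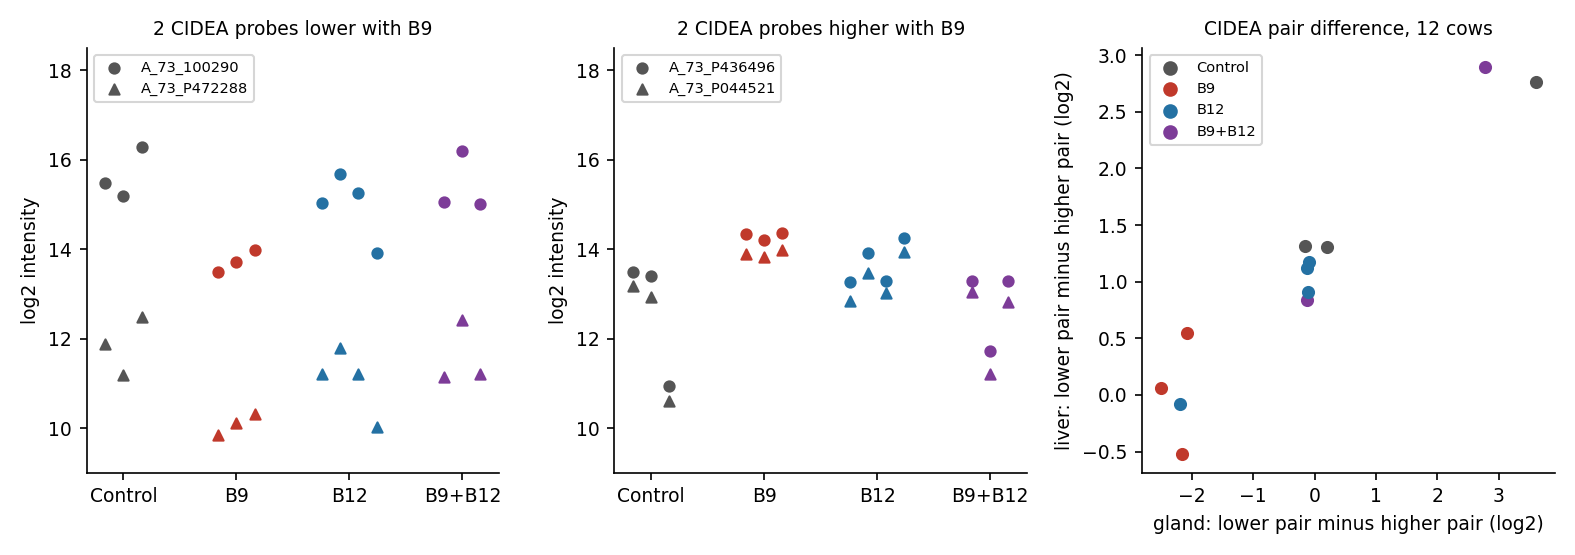
CIDEA on the arrays. The left and middle panels plot the log2 intensity of the 2 probes lower and the 2 probes higher with B9 for each mammary array by group, and the right panel plots the mean of the lower pair minus that of the higher pair in the gland (horizontal) against the liver (vertical) for the 12 cows with both arrays, in log2 units after joint normalization. The 3 Vitamin B9 cows and a B12 cow are the lowest on both axes, and the 2 cows at the upper right are a Control and a B9 + B12 cow.

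MMAA, ATIC and SLC19A1, genes of vitamin B12 and folate metabolism, were lower with B9 with the groups apart. MMAA, whose protein helps to deliver the vitamin B12 cofactor to mitochondrial methylmalonyl-CoA mutase, was at 8.58, 8.67 and 8.93 in Control cows and 7.96, 8.04 and 8.24 with B9. The difference was -0.65 (standard error 0.122), and its limma p of 0.000269 before adjustment was the smallest on a brightest probe among the 20 higher and lower genes picked by p. A dimmer probe was apart as well (-0.30) and the last overlapped (-0.20). Without cow 57 the difference was -0.73, and in the livers of the same B9 and Control cows the 3 probes differed by -0.52, -0.35 and -0.40 under joint normalization. ATIC, the enzyme of the last steps of purine synthesis, which takes a formyl group from folate, was at 11.57, 11.40 and 11.18 in Control cows and 10.90 to 11.04 with B9 (difference -0.40, standard error 0.0989). SLC19A1, the reduced folate carrier, was at 6.89, 6.84 and 6.82 in Control cows and 6.57, 6.68 and 6.70 with B9. This was a difference of -0.20 (-0.49 to -0.10 over the alternatives) with the groups apart.

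The folate cycle and methionine cycle lists did not lean that way, and genes of vitamin B12 transport and cofactors were not taken as a list. Of 18 folate cycle genes measured (of 22), 8 were above 0 and 10 below (median -0.0219, and 0.0142 with 10 above 0 without cow 57), and ATIC was the only one at an unadjusted p of at most 0.05. The serine hydroxymethyltransferases SHMT1 and SHMT2, which load folate with one-carbon units, differed by 0.042 and -0.042, and TYMS, the thymidylate synthase, by 0.065. The 4 folate transport genes measured were all below 0 (median -0.124, -0.265 without cow 57, and 0.0435 with slide as a fixed block), SLC19A1 with the only unadjusted p of at most 0.05, while the proton-coupled carrier SLC46A1 differed by -0.0068. In the methionine cycle, 8 of 13 genes were above 0 (median 0.0258). MTR and MTRR, methionine synthase and its reductase, differed by 0.026 and 0.019, and no gene of this cycle reached an unadjusted p of 0.05.

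Several of the lower genes belong to lymphocytes. CD247, the zeta chain of the T cell receptor complex, was at 10.12, 9.76 and 10.01 in Control cows and 9.17, 9.46 and 9.29 with B9 (difference -0.66, standard error 0.183), and its other probe differed by -0.67. LCP2 (an adaptor of T cell receptor signalling), NCR3 (an activating receptor of natural killer cells) and CTSW (a protease of cytotoxic lymphocytes) differed by -0.55, -0.57 and -0.63, each with the groups apart on the brightest probe. CD3E, a chain of the T cell receptor complex, was at 9.36, 8.20 and 8.41 in Control cows and 8.06, 7.97 and 7.96 with B9, so that the groups were apart but close except for Control cow 42.

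All 15 of the T and NK cell markers were below 0, with a median of -0.231, against -0.00177 over all names. CD3E and CD2 had an unadjusted p of at most 0.05 and none was higher at that p (1.19% and 1.24% of all names), and without cow 57 neither reached it (limma p of 0.0853 and 0.199). The median level of the list was 8.14 to 8.41 on the Control arrays and 7.43 to 8.06 with B9, while the summed intensity overlapped (10720 to 19320 against 7208 to 20270). The list leaned on single cows, since without cow 57 the median was -0.0994, with 11 of 15 below 0, and without Control cow 42 it was -0.0768. All 7 B and plasma cell markers measured were below 0 too (median -0.203), and without cow 57 the median was -0.0555, with 5 below 0. Of the 10 macrophage markers 6 were below 0 (median -0.183, and 0.0648 with slide as a fixed block) and of the 8 neutrophil markers 7 (median -0.0959). The neutrophil list turned without cow 57, to a median of 0.0413 with 3 below 0.

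Antigen presentation genes were lower with B9 more often than higher, 10 of 11 (median -0.296). PSMB9, a subunit of the immunoproteasome, was at 11.95, 11.98 and 12.42 in Control cows and 11.69, 11.57 and 11.27 with B9 (difference -0.61). PSMB8, another such subunit, differed by -0.39 and TAP1, of the peptide transporter, by -0.32, with the groups apart. Without cow 57 the list had a median of -0.166 and 9 of 11 members below 0. Of the 16 interferon response genes measured, 12 were below 0 (median -0.119) and none had an unadjusted p of at most 0.05.

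No gene of the milk protein list had an unadjusted p of at most 0.05. The probes of the caseins CSN1S1, CSN1S2 and CSN3 lay between 18.4 and 18.8 in both groups and differed by -0.021, 0 and -0.031, and LALBA, the regulatory subunit of lactose synthase, by -0.0054. None of these probes was called saturated on a mammary array, but they were the brightest of the array, where quantile normalization leaves little room for a difference. LTF (lactoferrin) ranged from 16.08 to 17.54 in Control cows and from 17.10 to 17.65 with B9, a difference of 0.66 with overlap. Of 21 genes of milk fat synthesis, 14 were below 0 (median -0.128, range -0.485 to 0.432), and without cow 57 the median was -0.0439. DGAT2, which makes triacylglycerol, was an exception at 6.38, 6.50 and 6.30 in Control cows and 6.99, 6.98 and 6.50 with B9 (difference 0.43, unadjusted limma p of 0.0353), where cow 57 was at the level of the highest Control cow. The fatty acid desaturase SCD, the fatty acid binding protein FABP3 and the milk fat globule membrane protein BTN1A1 differed by 0.075, -0.25 and 0.0030.

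Of 14 lipid droplet genes, 13 were above 0 (median 0.135), CIDEA being the exception on its brightest probe. None of the 13 had an unadjusted p of at most 0.05, the nearest being G0S2, an inhibitor of triacylglycerol lipolysis, which differed by 0.57 (unadjusted limma p of 0.0735). Of the 16 genes of lactation signalling measured, 8 were above 0 and 8 below (median -0.0436), with 3 apart and higher and 2 apart and lower, where the groups were apart for 3.43% and 3.25% of all names. STAT5B, a transcription factor downstream of prolactin and growth hormone, differed by -0.47 and its target SOCS2 by -0.34, both with the groups apart. STAT5A and the prolactin receptor PRLR differed by -0.10 and -0.16, with overlap. Without cow 57, the differences of STAT5B and SOCS2 were -0.34 and -0.22. ELF5, a transcription factor of the secretory epithelium, differed by 0.24, at 15.17 to 15.27 in Control cows and 15.36 to 15.62 with B9, and IGFBP5, which binds insulin-like growth factors, differed by 0.38 with the groups apart.

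Other genes past an unadjusted p of 0.05 and a 2-fold difference rested on a single probe. VAV1, a signalling protein of blood cells that the study also lists for the gland, differed by -1.08 on A_73_104379 (9.05, 9.16 and 9.52 in Control cows, 8.37, 8.13 and 8.0 with B9), whereas its brightest probe overlapped and differed by -0.051 and the last, near background, differed by -0.13. JSP.1, an MHC class I heavy chain gene of a family with near-identical members, differed by -1.41 on A_73_P047531, where cows 39, 41 and 57 were at 6.16, 8.48 and 7.46 and the difference without cow 39 was -0.80, by -0.67 on its brightest and by 0.40 on the last. THBD, the thrombomodulin of endothelial cells, has 1 probe and was at 8.92, 10.75 and 9.22 in Control cows and 8.75, 8.54 and 8.34 with B9, with a range among Control cows wider than the gap. FUT6, the current symbol of the fucosyltransferase the study calls FUT5, differed by 2.89 (standard error 1.01, and 2.35 to 5.32 over the alternatives), but was well above background on only 2 of the 3 Control arrays. Control cow 42 (9.07) lay above cow 57 (9.01), and Control cows 43 and 51 were at 6.16 and 6.0.

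Not every gene listed in the study for the mammary gland was found by name on the array, and ATP6V1G3, LOC785756, MGC126945, FOLR1 and H1FNT were not analysed here. Besides POSTN, CIDEA, FUT6, ELF5 and LALBA, SPP1 (osteopontin, also secreted in milk) differed by 0.51 with the groups apart, and by 0.24 to 0.91 over the alternatives. RAB15 and ADGRF1 (the study's GPR110) differed by 0.72 and 0.64 with overlap, RAB15 turning to -0.046 without cow 39, and B4GALT1, the catalytic subunit of lactose synthase, by 0.015. Except ELF5, LALBA and B4GALT1, which the study picked for their known roles, these genes were chosen by the study on these cows, and their directions are no independent evidence.

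**Figure D4:**
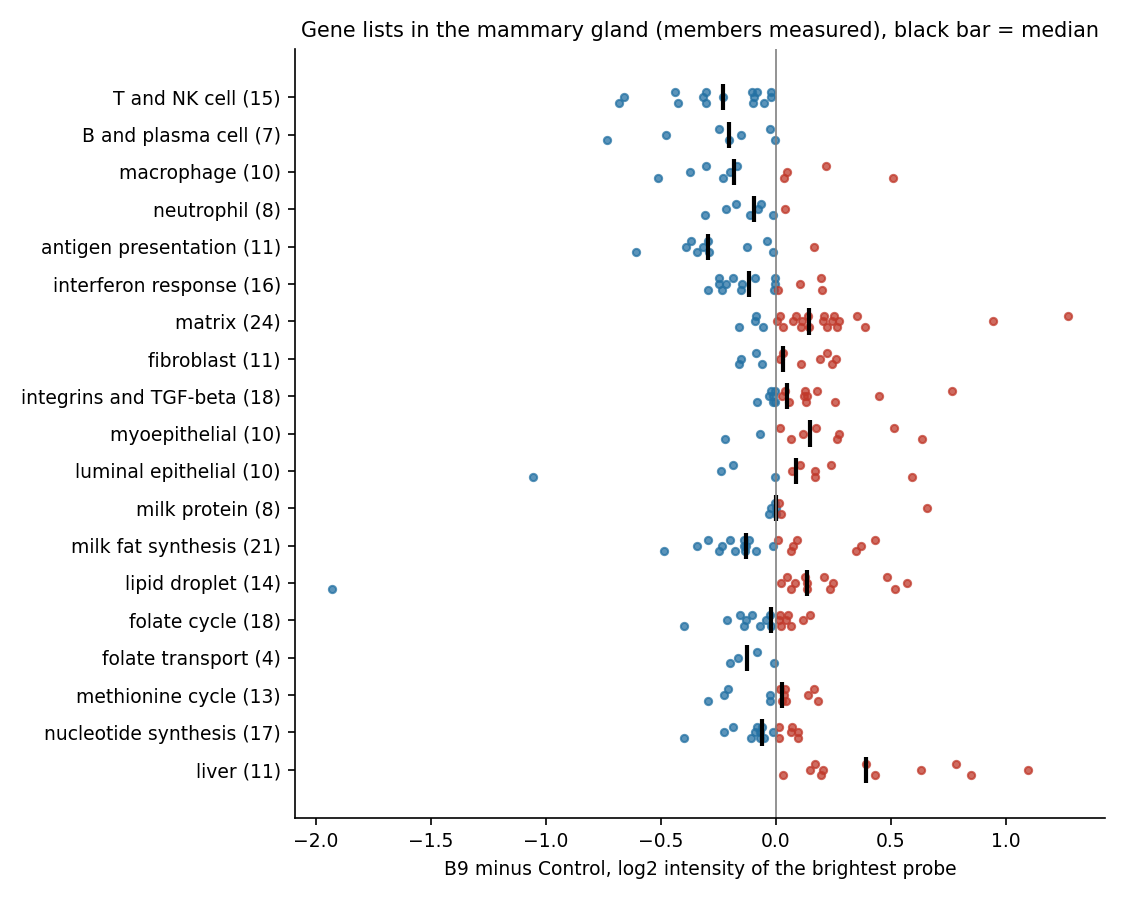
Difference of each measured member of 19 gene lists (Vitamin B9 minus Control, log2, brightest probe, a point per gene, with the number of members in brackets and a black bar at the median). All points of the T and NK cell, B and plasma cell and folate transport lists lie at or left of 0, all liver points lie right of 0, and most matrix points lie right of 0.

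The 11 liver list genes measured were all above 0, with the largest median of the lists (0.393). This rested on cow 57: without it the median was -0.0486 and 5 of the 11 were above 0. The summed intensity of the list was 7600 to 14810 with B9 and 7116 to 9816 in Control cows, and under joint normalization TF and FGA were at 11.6 and 10.1 on the array of cow 57, against 18.7 to 18.9 and 18.1 to 18.6 on the liver arrays. Of the 10 luminal epithelial markers measured, 6 were above 0 (median 0.0886), and without cow 57 the median was -0.0538, with 5 above 0. KRT7, a keratin of luminal cells, differed by 0.59 with overlap (unadjusted limma p of 0.0375), and by 0.45 without cow 57 (unadjusted limma p of 0.134). KRT18, another such keratin, was at 8.93 and 9.04 in cows 39 and 41, below all Control cows (9.68 to 11.61). In cow 57 it was at 11.04, within their range. Differences of the luminal list ranged from -1.06 to 0.59. The part of liver transcripts in other differences of the array of cow 57 was not tested.

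The same added folic acid in cows that also received vitamin B12 shares no array with this comparison. For B9 + B12 against B12, limma called 0 genes, with 2033 probes (4.66%) at an unadjusted p of at most 0.05 and a smallest adjusted p of 0.995. Cyber-T called 8 names there. None of them was among the 4 it called for B9 alone, but with so few names called this tells nothing of a difference between the comparisons. POSTN differed by -0.29 and COL8A1 by -0.29 with B12, against 1.27 and 1.11 without it. CIDEA differed by 0.45 on its brightest probe and MMAA by 0.18, in both cases the opposite sign to that without B12. Of the 23 genes named by size or p, the 10 that were higher with B9 alone included 7 below 0 on B12, and the 13 lower ones included 8 above 0. Of the gene lists, the T and NK cell and the matrix list had medians of 0.0744 and -0.202 with B12, opposite to those without it. The antigen presentation, interferon response, macrophage and neutrophil lists were below 0 in both comparisons, with medians of -0.322, -0.247, -0.162 and -0.183 with B12. Single B12 cows stood out, as the neutrophil level was 7.93 in cow 36 against 6.71 to 6.93 in the others. The macrophage level was 10.39 in cow 52 against 9.30 to 9.83. Without cow 57 the neutrophil median of the first comparison was 0.0413. For the comparison with B12, list medians were not computed with a cow left out.

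**Figure D5:**
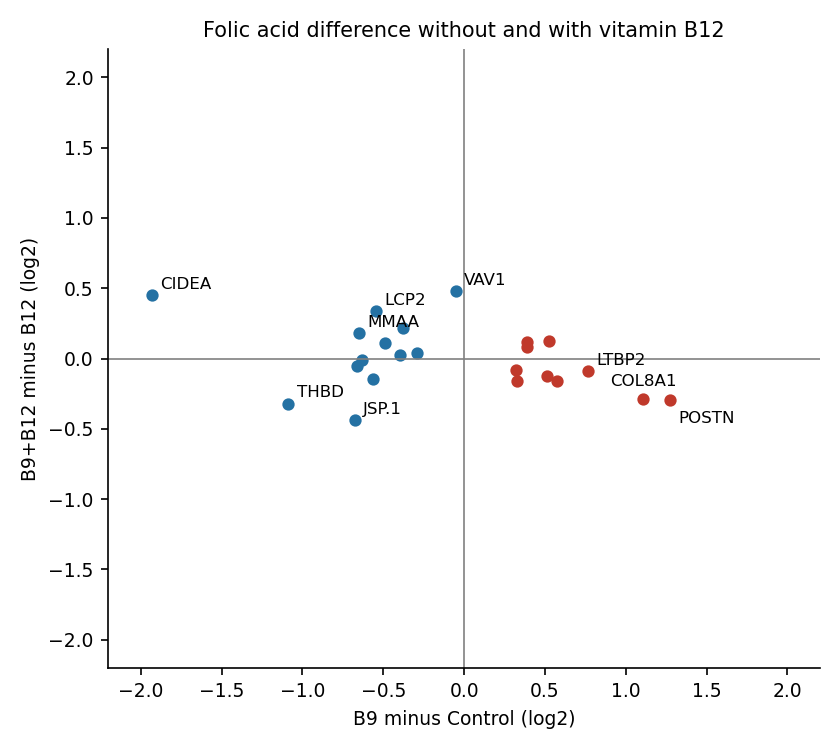
Difference with added folic acid in cows without vitamin B12 (horizontal, B9 minus Control) and with it (vertical, B9 + B12 minus B12) for the 23 genes named by size or p on the first difference, log2, brightest probe. The genes range from -1.93 to 1.27 on the horizontal axis by choice and from -0.437 to 0.482 on the vertical axis.

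The interaction itself, tested by limma, had 0 calls, a smallest adjusted p of 1.00 (rounded) and 1381 probes (3.16%) at an unadjusted p of at most 0.05. Its estimate was -1.56 for POSTN (unadjusted limma p of 0.00157) and 0.83 for MMAA (0.000466). These genes were chosen for a difference that is part of the interaction, so these p-values do not show that the effect of folic acid differed between cows with and without B12. The livers of the same B9 and Control cows gave 0 calls for the difference between tissues (1031 probes, 2.36%, at an unadjusted p of at most 0.05). Under joint normalization POSTN differed by 1.46 in the gland and -0.55 in the liver, and COL8A1 by 1.26 and 0.13. Among the same 23 genes, 6 of the 10 higher genes were also above 0 in the liver, and 10 of the 13 lower genes were below 0. Over all names the median difference in the liver was 0.00514. The part of differences between cows, which both tissues share, in these counts was not tested.

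Slide is a further source of spread, as cows 39 and 51 were the only pair of the groups hybridised on the same slide. Between these 2 cows, POSTN differed by 1.19, COL8A1 by 0.66, LTBP2 by 1.10, MMAA by -0.98 and ATIC by -0.28. As these genes have the groups apart, the sign between these cows follows from that and says nothing of the slide.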

How the data were processed

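RNA of mammary gland and liver biopsies was labelled with Cy3 and hybridised to 1-colour Agilent bovine arrays, 1 array for each cow and tissue. The deposited scanner files hold unnormalized intensities (median pixel values of spots and of the local background) and a processed signal, an intensity that the image software had background-subtracted and scaled. The images were read with Agilent Feature Extraction, for which the submitters' processing notes and the file headers give different versions. A table of log2 values, which the authors made by normexp correction and normalization between arrays, was deposited too and served as an alternative.

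Median signals were corrected by normexp with an offset of 50 and normalized by quantiles over the 13 mammary arrays (or over both tissues together, where joint normalization is stated). Control spots and outlier flags were left out and spots of a probe averaged, which left 43653 probes. The limma fit (R 4.3.3, limma 3.58.1) held the 4 mammary groups, which share 1 estimate of the spread, and p-values were adjusted by Benjamini-Hochberg over all probes. A call needed an adjusted p of 0.05 or less with a 2-fold or larger difference. Cyber-T, a regularized test that the study's methods name, was run with a window of 101 and a confidence of 10. It was computed from the same values. The scripts were tested on simulated data. The number of arrays limits the precision.

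Array names were matched to current symbols through RefSeq, which gave one to 53.9% of probes, and a gene is represented by its brightest probe unless another is named. The genes named are 14 of those that the study lists or assays for the gland (others it lists were not taken up), those with a probe at an unadjusted p of at most 0.05, at least 2-fold and groups apart, the 10 higher and 10 lower genes of smallest p on the brightest probe with groups apart, and members of 34 gene lists that had an unadjusted p of at most 0.05 or define a list. The members and lists were chosen with earlier results of these data known. "Apart" means that all arrays of a group lie on 1 side of all arrays of the other. Liver and mammary arrays of a number come from the same cow. In the 12 cows with both, the correlation of the deviations from the group means was -0.25 to 0.26, over 0.1 in 4 cows. Alternatives to the background correction, scaling, filter, slide, test and set of arrays were run. Some genes and a primer are not reported here.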

Additional observations from a re-analysis of the deposited data

Results flagged for a closer look

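In the B12 group, the only mammary group of 4 arrays, 4 of 36 values tested had an array far from the other 3. About 1 in 20 groups is flagged by chance. The CIDEA pair difference was -2.12 in cow 52, against 0.047 to 0.074 in the other B12 cows. ADGRF1 was at 9.45 in cow 40, against 9.85 to 9.86. SCML4 was at 7.51 in cow 52, against 7.93 to 8.0. RAB15 was at 11.19 in cow 36, against 11.5 to 11.55.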

How the results depend on the processing

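With 3 cows a group, differences could go undetected, also those of 2-fold or more, of which limma called none on all arrays. The 30 probes at an unadjusted p of at most 0.05 and at least 2-fold became 445 with the processed signal, 59 with a normexp offset of 16, 57 with no background correction, 68 with 75th percentile scaling, 61 with slide as a fixed and 46 as a random block, 58 with array weights, 59 on the processed table, 74 with Cyber-T and 120 with Cyber-T on that table. Leaving out 1 cow gave 18 (cow 39) to 78 (cow 57). The 0 genes called by limma became 4 with Cyber-T and 10 with Cyber-T on the processed table, which adds COL8A1, FUT6 and VAV1 among others, and 0 to 1 when a cow was left out (1, XM_873176, without Control cow 43). With Cyber-T, 8 genes were called for B9 + B12 against B12. For the difference between tissues, 0 to 1 were called when an array was left out (1 without the mammary array of Control cow 42 and 1 without that of Control cow 43), and with the cow as a block for the pairing, 0, as without it. The cause of these changes was not tested.

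B4GALT1, LALBA, SLC1A1 and VAV1 on its brightest probe, none past the adjusted threshold, turned direction. B4GALT1 was -0.059 with the processed signal, -0.050 with slide as a fixed block, -0.028 on the processed table and -0.028 as the mean of its probes. VAV1 was 0.056 with 75th percentile scaling, 0.035 with slide as a fixed block and 0.039 with array weights. SLC1A1 was -0.10 with 75th percentile scaling, under which the median of all names moved to -0.218, and LALBA was 0.018 with slide as a fixed block. Leaving out 1 cow gave -0.15 to 0.24 for B4GALT1, -0.046 to 1.36 for RAB15, -0.021 to 0.0074 for LALBA and -0.63 to 0.54 for VAV1. An analysis from mean spot signals was not run, as that column was not used here. Over the alternatives, the medians of the T and NK cell, B and plasma cell, antigen presentation, interferon, matrix, myoepithelial and lipid droplet lists kept their sign. Those of the liver, luminal and neutrophil lists turned only without cow 57, and folate transport (-0.265 to 0.0435), macrophage (-0.248 to 0.0648), milk fat synthesis (-0.217 to 0.0397), fibroblast (-0.0261 to 0.136), folate cycle (-0.115 to 0.0142) and methionine cycle (-0.0956 to 0.0407) turned in at least 1.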

Other observations

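Other gene lists are given by counts and medians, with the value without cow 57 beside each where it moved by over 1.5 times. Over all names the median was -0.00177. The 6 erythrocyte genes measured were all below 0 (median -0.169), and without cow 57 the median was -0.0242, with 4 below 0. Of the 19 cell cycle genes measured, 14 were below 0 with and without cow 57 (medians -0.0487 and -0.0242), and 12 of the 19 were well above background on all 6 arrays. Endothelial markers were below 0 in 7 of 9 (median -0.0541), and in 5 of 9 without cow 57 (median -0.0032). Of the 17 V-ATPase genes measured, 10 were above 0 (median 0.0202, and 0.0398 without cow 57). Apoptosis genes were below 0 in 8 of 16 (median -0.000679, and 0.0173 without cow 57) and nutrient transporters in 7 of 14 (median -0.00105, and -0.0848 with 9 below 0 without cow 57). Of the 8 genes of DNA and histone methylation measured, 4 were above 0 (median -0.0102), and without cow 57 3 were (median -0.0386).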
